A study of Mus musculus with 20 samples.

Results

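Transcripts of 10 cytochrome P450 genes of family 4 were measured in mouse liver: Cyp4a10, Cyp4a12a, Cyp4a12b, Cyp4a14, Cyp4a31 and Cyp4a32 of subfamily 4A, Cyp4f13, Cyp4f14 and Cyp4f15 of subfamily 4F, and Cyp4v3. They were selected by symbol, each matched 1 row of the gene tables, and they are 10 of 25444 annotated loci. All 10 passed the filter on low counts, which left 13704 genes for testing. The 20 livers came from untreated mice of the inbred strains C57BL/6N (B6) and C3H/HeN (C3) at 20 weeks of age, with 5 females and 5 males of each strain. No mouse carried an engineered allele, all were fed the same diets, first NIH-31 and then NTP2000, and RNA was taken from the left lateral lobe. Each sex had its own room, and effects of sex and of room cannot be told apart. Because the tissue was whole liver, fewer cells of a type and less RNA per cell cannot be told apart either.

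Enzymes of this family add a hydroxyl group to the terminal (omega) carbon of fatty acids, using electrons passed on by cytochrome P450 reductase. The products are oxidized further to dicarboxylic acids, which peroxisomes shorten by beta-oxidation, and with arachidonic acid and leukotrienes as substrates the same chemistry makes or removes signalling lipids. Several Cyp4a genes are textbook targets of PPAR-alpha, the nuclear receptor that senses fatty acids in hepatocytes, while Cyp4a12 transcripts are known in mouse liver and kidney as male-specific and dependent on androgen and on the male pattern of growth hormone.

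The 6 Cyp4a genes lie in the same stretch of chromosome 4, between 114971651 (the annotated start of Cyp4a12a) and 115294971 (the annotated end of Cyp4a32) of mm9, the build the deposited tables use. Stretches of 300 bases around the annotated starts of 6 genes are shown because they hold a pair of near copies that shared their sex bias (Cyp4a12a and Cyp4a12b) and a set of 3 that differed in level (Cyp4a10, Cyp4a31 and Cyp4a32), beside the more distant Cyp4a14. Each run goes 5′ to 3′ on the gene's own strand, from 250 bases before the start to 50 bases into the transcribed first exon, and was read from the mm9 reference genome. In the first 3, capitals mark the letters TTCNNNGAA, the pattern bound by STAT5-type factors of the growth hormone pathway. In the last 3, capitals mark bases that were substituted or inserted relative to the named neighbour in a global alignment with free ends. Bases outside the alignment stay in lower case and were not compared, and missing bases are not marked.
Cyp4a12a, chr4:114971401-114971700, plus strand: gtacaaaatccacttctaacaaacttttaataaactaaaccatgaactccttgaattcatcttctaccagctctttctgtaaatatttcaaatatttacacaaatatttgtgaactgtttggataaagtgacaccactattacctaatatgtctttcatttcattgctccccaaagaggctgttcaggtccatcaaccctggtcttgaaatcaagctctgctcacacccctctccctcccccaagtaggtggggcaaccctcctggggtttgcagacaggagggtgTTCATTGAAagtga
Cyp4a14, chr4:115168697-115168996, minus strand: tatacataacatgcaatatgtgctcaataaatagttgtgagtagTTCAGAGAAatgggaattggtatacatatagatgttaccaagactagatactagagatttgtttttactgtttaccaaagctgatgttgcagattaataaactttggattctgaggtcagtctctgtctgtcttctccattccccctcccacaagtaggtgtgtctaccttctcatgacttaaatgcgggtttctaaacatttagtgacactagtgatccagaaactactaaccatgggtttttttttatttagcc
Cyp4a10, chr4:115190642-115190941, plus strand: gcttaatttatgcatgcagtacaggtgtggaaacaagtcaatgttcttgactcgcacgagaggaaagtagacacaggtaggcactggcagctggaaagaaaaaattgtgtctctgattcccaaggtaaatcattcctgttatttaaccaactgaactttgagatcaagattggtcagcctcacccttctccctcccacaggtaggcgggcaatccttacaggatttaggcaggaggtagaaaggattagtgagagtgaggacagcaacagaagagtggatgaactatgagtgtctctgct
Cyp4a12b, against Cyp4a12a, chr4:115083979-115084278, plus strand: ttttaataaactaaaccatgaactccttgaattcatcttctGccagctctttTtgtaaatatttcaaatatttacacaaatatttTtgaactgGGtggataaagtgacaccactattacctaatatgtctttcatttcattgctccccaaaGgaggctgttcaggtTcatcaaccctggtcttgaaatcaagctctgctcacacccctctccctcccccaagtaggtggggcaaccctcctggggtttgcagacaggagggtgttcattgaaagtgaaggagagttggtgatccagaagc
Cyp4a31, against Cyp4a10, chr4:115236004-115236303, plus strand: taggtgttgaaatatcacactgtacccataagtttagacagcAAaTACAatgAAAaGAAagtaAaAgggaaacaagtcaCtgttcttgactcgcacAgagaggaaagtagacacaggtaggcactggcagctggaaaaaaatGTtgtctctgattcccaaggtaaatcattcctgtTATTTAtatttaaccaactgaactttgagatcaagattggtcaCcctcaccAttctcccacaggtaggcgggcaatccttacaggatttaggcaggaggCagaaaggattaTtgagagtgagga
Cyp4a32, against Cyp4a10, chr4:115273293-115273592, plus strand: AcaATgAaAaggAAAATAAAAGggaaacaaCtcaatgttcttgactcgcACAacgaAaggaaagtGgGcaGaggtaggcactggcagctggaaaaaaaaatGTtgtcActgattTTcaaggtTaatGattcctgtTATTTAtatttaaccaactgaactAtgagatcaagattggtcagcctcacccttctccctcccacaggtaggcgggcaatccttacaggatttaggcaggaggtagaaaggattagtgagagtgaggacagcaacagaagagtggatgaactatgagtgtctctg

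The Cyp4a12b stretch was 97.8% identical to that of Cyp4a12a over 276 aligned bases, with 6 substitutions and 1 extra base, and 23 of its bases lay outside the alignment because the annotated starts differ. The stretch of Cyp4a31 was 92.4% identical to that of Cyp4a10 over 251 aligned bases, with 9 extra and 10 missing bases. Another 40 of its bases, at its 5′ end, lay outside the alignment. The stretch of Cyp4a32 was 93.3% identical to that of Cyp4a10 over 282 aligned bases, with 18 extra bases and 1 missing. Extra and missing bases do not enter these percentages. The pattern TTCNNNGAA, which reads the same on both strands, was found in 4 of the 10 members: at positions 37 to 45 after the start in Cyp4a12a, at 14 to 22 in Cyp4a12b, at -206 to -198 in Cyp4a14 and at -22 to -14 in Cyp4f13. It occurred in 7.88% of 25283 promoter stretches of the same length. The nuclear receptor motif AGGNCA repeated with 1 base between, searched on both strands, was in 0.38% of all stretches and in none of the 10. A match or its absence describes these letters only.

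The coding sequences followed the same pairing. Those of Cyp4a12a and Cyp4a12b were 98.49% identical, Cyp4a10 was 97.19% identical to Cyp4a32 and 96.6% to Cyp4a31, and Cyp4a10 and Cyp4a14 were 77.57% identical. The read length was 125 bases, and read pairs that mapped to several places were left out of the counts. Of the 125-base windows of the annotated transcript, 31.8% of Cyp4a12a and 31.1% of Cyp4a12b had an exact copy in another member or elsewhere in the cluster, against 13.2% in Cyp4a32, 8.96% in Cyp4a31, 8.06% in Cyp4a10 and none in the other 5. The split of reads between Cyp4a12a and Cyp4a12b, and the levels of Cyp4a10, Cyp4a31 and Cyp4a32, are therefore less certain than the other levels. Among Cyp4a10, Cyp4a31 and Cyp4a32, the first was the most abundant by group mean except in C3 males, where Cyp4a32 was. No member overlapped another annotated gene.

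Libraries held 27370921 to 46835745 counts and were sequenced in 3 pools of 8, 5 and 7 livers, each with livers of all 4 groups. At this depth 3 counts correspond to 0.0641 to 0.110 CPM, the count scaled to the library's total. The 7 hepatocyte markers in the tables (of 8 sought) together made up 83226 to 178203 TPM in each liver, so the label of liver tissue was met. Levels are given in TPM, which divides counts by gene length and rescales each library to a common total and lets members be compared, and as mean ± SD over 5 livers. Differences are log2 fold changes from edgeR's quasi-likelihood test on the counts, with group and pool in the model and p-values adjusted over all 13704 genes. The SE beside each was derived from that test, as the size of the log2 fold change over the square root of its F statistic. Where a group has few counts, a single liver can move the value by far more than this SE. A gene was called at an adjusted p under 0.001 and a log2 fold change over 0.5 in size.

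The order of the members by TPM differed between the groups. In B6 females Cyp4a10 (698 ± 63.7) and Cyp4a14 (604 ± 148) were the most abundant and overlapped each other, followed by Cyp4v3 (391 ± 83.7) and Cyp4f14 (315 ± 33.3). In B6 males Cyp4v3 (543 ± 134) came first, and Cyp4a10 (268 ± 172), Cyp4f14 (209 ± 29.9), Cyp4a12a (182 ± 61.1) and Cyp4f15 (131 ± 15.1) followed, each overlapping the next. In C3 females Cyp4a10 (345 ± 102), Cyp4v3 (287 ± 51.6) and Cyp4f14 (253 ± 27.7) led with overlapping ranges. In C3 males Cyp4v3 (655 ± 115) stood apart from the rest, ahead of Cyp4a12a (274 ± 43.4) and Cyp4f14 (256 ± 24.7), which overlapped. Cyp4a31 was below 5 TPM in all 20 livers, and Cyp4a12a and Cyp4a12b were the lowest members in both groups of females.

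**Figure D1:**
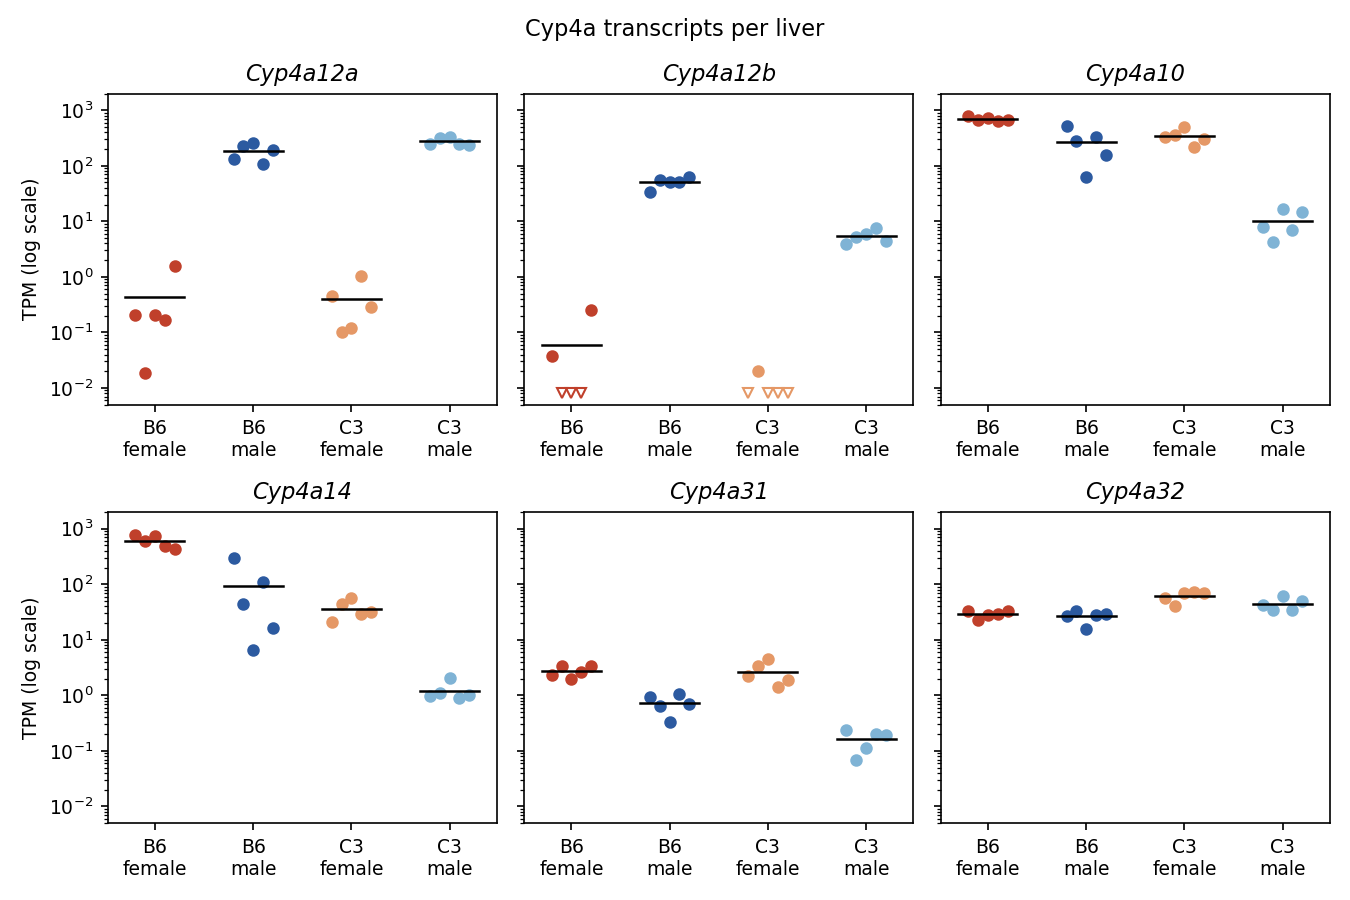
TPM of the 6 Cyp4a members in each liver, on a log scale, by strain and sex. Points are livers, lines are group means, and open triangles at the bottom stand for livers listed at 0. Cyp4a12a and Cyp4a12b were high in males, Cyp4a10, Cyp4a14 and Cyp4a31 lay higher in females than in males of the same strain without overlap, and Cyp4a32 lay between 15.7 and 72.6 TPM in every liver.

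Comparing females with males asked how far sex shaped the family within each strain. In B6, 4 of the 10 members were called, Cyp4a31 higher in females and Cyp4a12a, Cyp4a12b and Cyp4v3 lower, where 6.34% of all tested genes were called. In C3, 6 of 10 were called, Cyp4a10, Cyp4a14 and Cyp4a31 higher in females and Cyp4a12a, Cyp4a12b and Cyp4v3 lower, where 6.9% of all tested genes were called. The female and male livers did not overlap in CPM for 6 members in each strain, where 11.4% of all tested genes in B6 and 13.4% in C3 did not.

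Cyp4a12a and Cyp4a12b, which omega-hydroxylate arachidonic acid among other substrates, were transcripts of males. Cyp4a12a was at 130.4, 223, 252, 108 and 195 TPM in the 5 B6 males and at 246, 317, 326, 243 and 240.0 TPM in the 5 C3 males. In B6 females it was at 0.202, 0.0189, 0.209, 0.167 and 1.54 TPM, and in C3 females at 0.460, 0.0997, 0.120, 1.02 and 0.288 TPM. No female came near any male. The female to male log2 fold change was -9.00 ± 0.49 in B6 (adjusted p = 1.2e-10) and -9.64 ± 0.50 in C3 (adjusted p = 5.8e-11), and it had the same sign within each of the 3 pools in both strains. The size rests on few female counts: without B6 female replicate 5 the B6 value was -10.32, and without C3 female replicate 4 the C3 value was -10.30.

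Cyp4a12b was at 33.9, 56.2, 50.3, 51.2 and 63.8 TPM in B6 males and at 3.85, 5.27, 5.81, 7.70 and 4.48 TPM in C3 males. In all, 3 B6 females and 4 C3 females had no count of it, and the others had 2 and 10 counts in B6 and 1 count in C3. Males of both strains therefore lay above all females, and the fitted log2 fold change in B6 was -9.93 ± 0.32 (adjusted p = 5.6e-14). Without B6 female replicate 5, which held the 10 counts, the fitted value was -11.94; every remaining B6 female was then at or under 3 counts, and against this floor the mean of the males was at least 762-fold higher. In C3 every female was at or under 3 counts, and set against this floor of 3 counts per library the mean of the males was at least 77.1-fold higher (adjusted p = 4.2e-11).

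Between strains, 1 of these 2 genes was called. Cyp4a12b was lower in C3 males than in B6 males by -3.04 ± 0.19 on the log2 scale (adjusted p = 4.2e-10), without overlap and with the same sign in all 3 pools. Cyp4a12a ranged from 108 to 252 TPM in B6 males and from 240.0 to 326 TPM in C3 males, a log2 difference of 0.65 ± 0.32 that did not pass (adjusted p = 0.125). Of the TPM of both genes together, Cyp4a12b made up 22.9% ± 5.98 in B6 males and 1.97% ± 0.630 in C3 males.

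Cyp4a10 and Cyp4a14, 2 of the classic fatty acid-inducible omega-hydroxylases, ran the other way. Cyp4a10 was at 789, 676, 737, 634 and 654 TPM in B6 females and at 514, 279, 63.4, 324 and 159 TPM in B6 males. It was at 335, 358, 502, 221 and 307 TPM in C3 females and at 7.79, 4.24, 16.8, 7.09 and 14.9 TPM in C3 males. Every female lay above every male of its strain, by a wide margin in C3 and a narrow one in B6, where the highest male exceeded the lowest 7.93-fold in CPM. The log2 fold change was 5.05 ± 0.46 in C3 (adjusted p = 1.8e-07) and 1.34 ± 0.39 in B6, which did not pass (adjusted p = 0.0122).

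Cyp4a14 spread widely among B6 males. It was at 756, 614, 739, 479.6 and 429 TPM in B6 females and at 293, 43.8, 6.63, 110.3 and 16.3 TPM in B6 males, whose highest liver exceeded the lowest 43.2-fold in CPM. Among the groups in which every liver had more than 3 counts of a member, this was the greatest such ratio. In C3 it was at 20.9, 43.4, 56.7, 29.6 and 31.3 TPM in females and at 0.991, 1.11, 2.07, 0.890 and 1.01 TPM in males. The sexes did not overlap in either strain. The log2 fold change was 4.92 ± 0.76 in C3 (adjusted p = 8.9e-05), and 2.91 ± 0.63 in B6, short of the threshold (adjusted p = 0.0017). In B6 it passed with DESeq2 (2.81, adjusted p = 1.5e-04), with limma on log2(TPM + 1) (3.699, adjusted p = 2.8e-04), and without the B6 male with the highest level (3.77, adjusted p = 9.1e-05) or C3 female replicate 1 (3.03, adjusted p = 9.2e-04).

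Cyp4a31 had the direction of Cyp4a10 at far lower levels. Its TPM was 2.31, 3.32, 1.93, 2.58 and 3.32 in B6 females against 0.937, 0.639, 0.337, 1.05 and 0.686 in B6 males. It was 2.27, 3.33, 4.52, 1.41 and 1.897 in C3 females against 0.239, 0.0674, 0.115, 0.203 and 0.196 in C3 males, which rest on 3 to 11 counts a liver. Females were higher in both strains, by 1.79 ± 0.28 in B6 (adjusted p = 1.1e-04) and 3.84 ± 0.37 in C3 (adjusted p = 3.2e-07). In a fit of the B6 livers alone the B6 difference was 1.78 and just missed the threshold (adjusted p = 0.00101).

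Cyp4a32, which is as close to Cyp4a10 in sequence as Cyp4a31, showed no sex difference past the threshold. In B6 it was at 22.9 to 33.3 TPM in females and 15.7 to 33.6 TPM in males (log2 fold change 0.05 ± 0.17, adjusted p = 0.86). In C3 the ranges were 40.4 to 72.6 and 34.2 to 61.7 TPM (0.41 ± 0.18, adjusted p = 0.0686). It was the one member called higher in C3 than in B6.

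**Figure D2:**
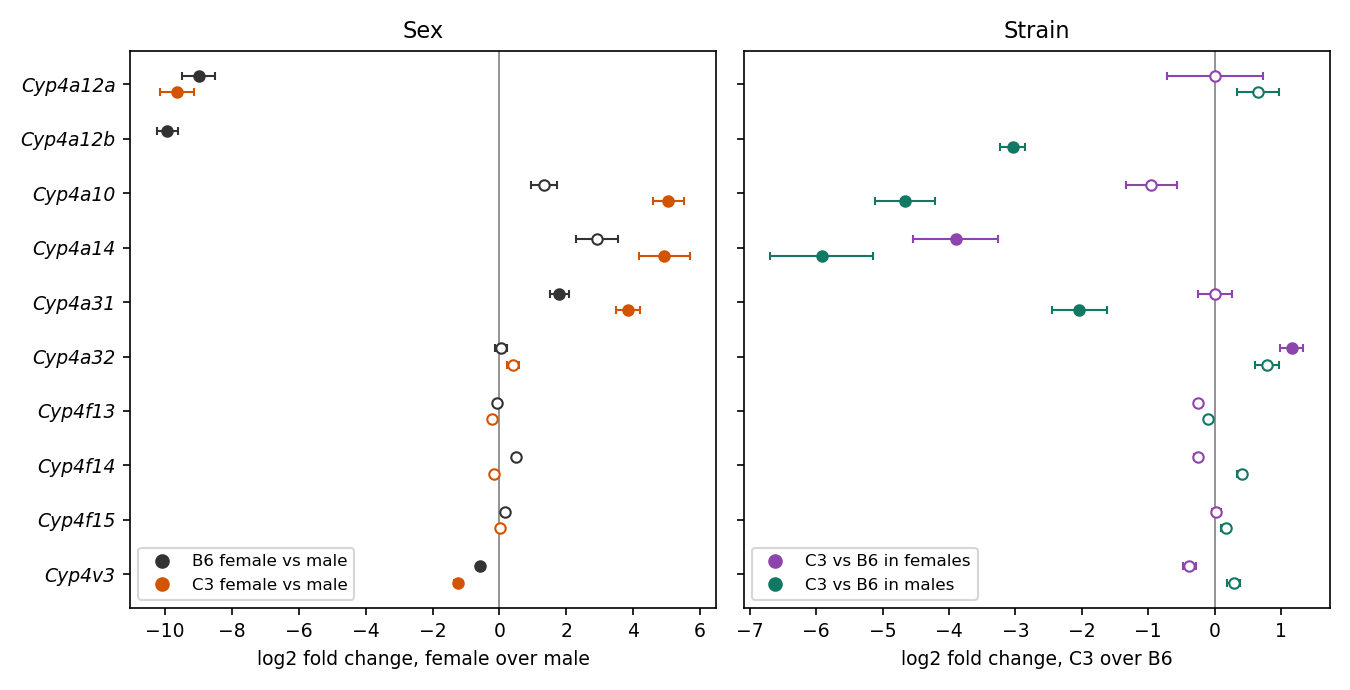
Log2 fold changes ± SE of the 10 members, female over male in each strain (left) and C3 over B6 in each sex (right). Filled points were called, open points were not, and Cyp4a12b is left out of the 2 comparisons that involve C3 females, whose livers were at or under 3 counts.

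Comparing C3 with B6 asked how the strains differed within each sex. In females 2 of the 10 members were called, Cyp4a32 higher and Cyp4a14 lower in C3, where 9.4% of all tested genes were called. In males 4 were called, Cyp4a10, Cyp4a12b, Cyp4a14 and Cyp4a31, all lower in C3, where 9.64% of all tested genes were called. The 2 strains did not overlap in CPM for 3 members in females and 5 in males, where 13.1% and 15.5% of all tested genes did not. The strain comparisons use the same livers as the sex comparisons and are not independent of them.

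In females, Cyp4a14 was lower in C3 by -3.90 ± 0.64 on the log2 scale (adjusted p = 1.0e-04), 36.4 ± 13.9 against 604 ± 148 TPM. Cyp4a10 did not overlap between the strains either, at 221 to 502 TPM in C3 and 634 to 789 TPM in B6, but its log2 difference of -0.95 ± 0.38 did not pass (adjusted p = 0.0625). In a fit of the 10 female livers alone it did pass (-0.99, adjusted p = 3.5e-04). Cyp4a32 was higher in C3 by 1.16 ± 0.17 (adjusted p = 4.3e-05), at 57.6, 40.4, 70.3, 72.6 and 70.3 TPM in C3 females against 32.8, 22.9, 27.4, 29.1 and 33.3 in B6 females. Cyp4a31 was at the same mean of 2.69 TPM in both strains, with SDs of 0.616 in B6 and 1.24 in C3 (log2 difference 0.01 ± 0.26, adjusted p = 0.985).

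In males, Cyp4a14 was lower in C3 by -5.92 ± 0.77 (adjusted p = 8.2e-06) and Cyp4a10 by -4.66 ± 0.45 (adjusted p = 1.6e-07), with the same sign in each pool. Without B6 male replicate 1 the value of Cyp4a14 was -4.89 and still called. The lowest B6 male was still above the highest C3 male for both genes. Cyp4a31 was lower in C3 males by -2.04 ± 0.41, with an adjusted p of 8.1e-04 close to the threshold. That call was lost when any of 14 of the 20 livers was left out (adjusted p 0.00107 to 0.00398) and stayed only without B6 female replicates 1, 3 and 5, B6 male replicate 3 and C3 female replicates 3 and 4; it was also lost with the replicate block, with limma on log2(TPM + 1) and in a fit of males alone. Cyp4a32 was at 34.2 to 61.7 TPM in C3 males and 15.7 to 33.6 in B6 males, without overlap, at a log2 difference of 0.79 ± 0.18 that did not pass (adjusted p = 0.00194), though it did with DESeq2 (adjusted p = 6.4e-05) and without C3 male replicate 2 (0.93, adjusted p = 4.5e-04).

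The sum of the 6 Cyp4a members per liver shows what these changes amount to, as a description without a test. It was 1334 TPM ± 207 in B6 females and 622 ± 236 in B6 males, without overlap, and 447 ± 114 in C3 females and 336 ± 50.7 in C3 males, with overlap. The ratio of female to male means was 2.15 in B6 and 1.33 in C3. The composition differed more than the sum. Cyp4a10 and Cyp4a14 made up 52.8% and 44.7% of it in B6 females, and Cyp4a10 alone 76.6% in C3 females, where Cyp4a14 made up 8.08% and Cyp4a32 14.7%. In C3 males Cyp4a12a made up 81.7%, Cyp4a32 13.3% and Cyp4a10 3.01%.

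B6 males varied most in composition. Cyp4a12a made up between 13.1% and 64.9% of the sum and Cyp4a14 between 1.71% and 29.3%. The 5 livers ranked in the same order for Cyp4a10 and Cyp4a14, with replicate 1 highest, then 4, 2, 5 and 3. For Cyp4a12a, replicates 1 and 4 were the 2 lowest and replicate 3 was the highest. These 5 livers came from all 3 pools, and 5 points are too few for a correlation.

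**Figure D3:**
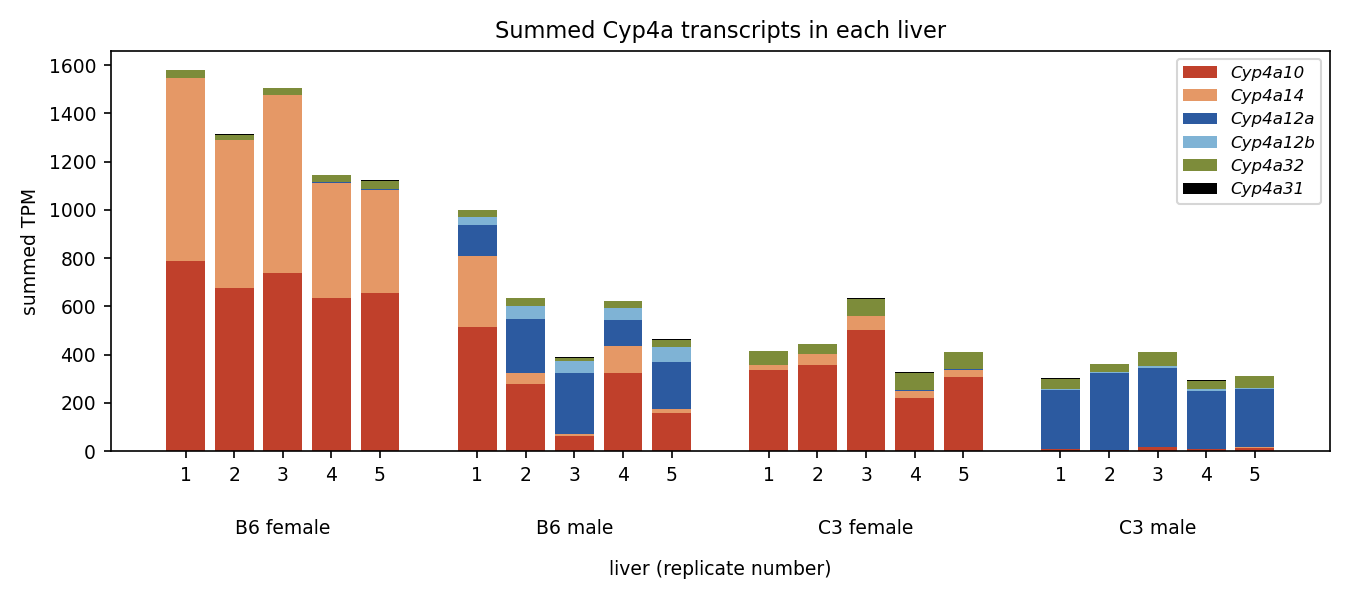
Summed TPM of the 6 Cyp4a members in each of the 20 livers, stacked by gene. Cyp4a10 and Cyp4a14 fill the bars of B6 females, Cyp4a12a fills those of C3 males, and B6 males hold both in shares that differ from liver to liver.

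The 3 Cyp4f genes were expressed at steadier levels, and no one of them was called between sexes or strains. Cyp4f14, known as a hydroxylase of leukotrienes and vitamin side chains, was at 345, 342, 264, 324 and 303 TPM in B6 females and at 210.4, 171, 216, 252 and 194 TPM in B6 males. It was at 244, 281, 285, 230.5 and 226 TPM in C3 females and at 263, 231, 240.3, 295 and 250.5 TPM in C3 males. The sexes did not overlap in B6 and overlapped throughout in C3. The log2 fold change of females over males was 0.48 ± 0.06 in B6 (adjusted p = 1.3e-05), past the p threshold but short of 0.5, and -0.17 ± 0.06 in C3 (adjusted p = 0.0405). In B6 it exceeded 0.5 with limma on log2(TPM + 1) (0.60) and when B6 female replicate 3 (0.52), B6 male replicate 1 (0.51) or B6 male replicate 4 (0.51) was left out.

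Cyp4f13 and Cyp4f15 varied little. Cyp4f13 lay between 40.03 and 71.6 TPM in the 20 livers, with log2 differences from -0.25 to -0.06 over the 4 comparisons. Of these, 2, females over males in C3 (-0.22 ± 0.04, adjusted p = 8.6e-04) and C3 over B6 in females (-0.25 ± 0.04, adjusted p = 1.3e-04), passed on p alone. Cyp4f15 lay between 109.9 and 178 TPM, and its log2 differences of 0.02 to 0.16 did not pass in any comparison. Its coefficient of variation within a group was 7.07% to 10.6% in CPM.

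Cyp4v3, the mouse counterpart of the human gene mutated in Bietti crystalline dystrophy, was a member biased to males in both strains. It was at 301, 316, 490.2, 390.5 and 456 TPM in B6 females and at 438, 683, 473, 428 and 694 TPM in B6 males, so the sexes overlapped. In C3 it was at 283, 232, 241, 342 and 337 TPM in females and at 601, 792, 762, 534 and 586 TPM in males, without overlap. The log2 fold change was -0.58 ± 0.10 in B6 (adjusted p = 2.0e-04) and -1.25 ± 0.10 in C3 (adjusted p = 3.2e-08). Within pools the B6 difference was -0.83, 0.08 (1 liver of each sex) and -0.68. Its call was lost at nearly the same size without the pool term (-0.59, adjusted p = 0.0433) and in a fit of B6 alone (-0.58, adjusted p = 0.00675), and on log2(TPM + 1), where it was -0.47 (adjusted p = 7.0e-04), under the minimum of 0.5. Between strains it was not called in either sex (-0.38 ± 0.10 in females, 0.29 ± 0.10 in males).

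**Figure D4:**
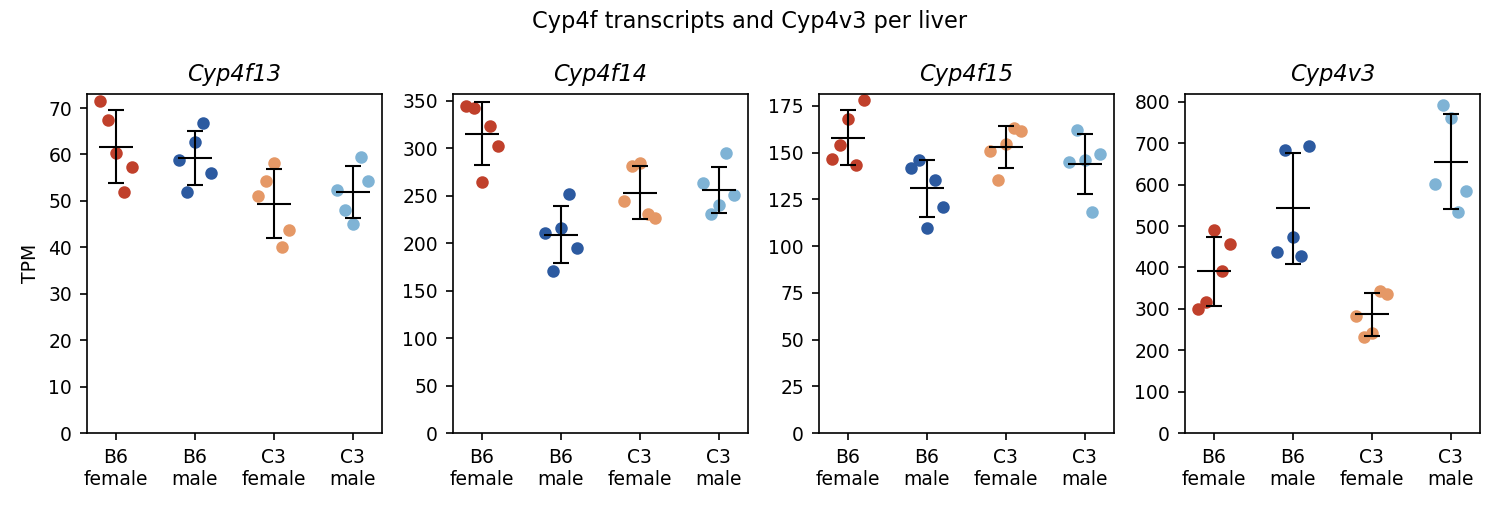
TPM of the 3 Cyp4f genes and of Cyp4v3 in each liver, on linear axes from 0. Points are livers and bars are mean ± SD (n = 5). Cyp4f14 lay at 264 to 345 in B6 females and at 171 to 252 in B6 males, and Cyp4v3 at 232 to 342 in C3 females and at 534 to 792 in C3 males.

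Whether the sex effect itself differed between strains was tested as an interaction, the C3 fold change over the B6 fold change. Of the 10 members, 2 were called, where 0.401% of all tested genes were called. For Cyp4a10 the female to male fold change was greater in C3 by 3.71 ± 0.56 on the log2 scale (adjusted p = 8.5e-04). This call was close to the threshold: it was lost when any of 17 of the 20 livers was left out (3.36 to 3.83, adjusted p 0.00117 to 0.00332), staying only without B6 male replicates 3 and 5 and C3 male replicate 3, and it was lost with limma, without the pool term and with the replicate block. For Cyp4f14 the fold change was smaller in C3 by -0.66 ± 0.09 (adjusted p = 3.4e-04), with opposite signs in the strains and within all 3 pools. It was lost without the pool term (adjusted p = 0.0357) and without C3 female replicate 1 (-0.66, adjusted p = 0.0011) or C3 male replicate 4 (-0.64, adjusted p = 0.0015). The interaction of Cyp4a31 (2.05 ± 0.49, adjusted p = 0.0261), Cyp4v3 (-0.67 ± 0.14, adjusted p = 0.0106) and Cyp4a14 (2.02 ± 0.93, adjusted p = 0.293) did not pass. With DESeq2 those of Cyp4a31 (2.07, adjusted p = 9.8e-04) and Cyp4v3 (-0.68, adjusted p = 3.3e-04) did. The interaction of Cyp4a12b was 0.22 ± 1.11 (adjusted p = 0.957) and passed with limma on log2(TPM + 1) (2.89, adjusted p = 9.5e-09) and log2(TPM + 0.1) (2.74, adjusted p = 2.3e-04), scales on which the pseudocount shortens a fold against females near 0 more where males are lower, as in C3.

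Markers of liver cell types moved with some of these comparisons. With strain, 5 of 5 pericentral hepatocyte markers were called lower in C3 females and 3 of 5 in C3 males. Their summed TPM was 7453 to 9315 in C3 females against 12188 to 16800 in B6 females, and 8505 to 12358 in C3 males against 10172 to 15072 in B6 males. Of 7 Kupffer cell markers, 4 were called lower in C3 females and 3 in C3 males, with summed TPM of 262 to 397 against 392 to 537 in females and 164 to 246 against 233 to 372 in males. Apoa1, 1 of 7 hepatocyte markers, was called higher in C3 in both sexes, with summed TPM of 150088 to 178203 against 110529 to 140239 in females and 112697 to 138877 against 83226 to 109210 in males. No marker of these 3 lists was at 0 throughout a group. The part of these shifts in the Cyp4 differences was not tested.

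With sex, fewer markers were called. Vsig4 of the Kupffer cell list was higher and Sox9 of 5 cholangiocyte markers and Cyp2f2 of 4 periportal markers were lower in females of both strains, and in C3 S100a9 of 3 tested neutrophil markers and Ptprc of 7 lymphocyte markers were higher and Cyp1a2 of the pericentral list lower in females. The list median ran against the called gene for periportal markers (0.24 in B6, 0.31 in C3) and cholangiocyte markers (0.04 and 0.45). All 4 periportal markers had an unadjusted p under 0.05 by edgeR in each strain. In the other lists with a gene called between the sexes, the median had the sign of that gene. With strain, Sox9 was also higher in C3 females, Lyve1 of 6 sinusoidal endothelial markers lower in C3 females, and Ptprc and periportal Hal lower in C3 males. Of 6 stellate cell markers none was called by edgeR in any comparison, while 4 had an unadjusted p under 0.05 with sex in each strain, 5 with strain in females, 6 with strain in males and 2 in the interaction. The summed TPM of every female lay above that of every male of its strain for Kupffer cell and hepatocyte markers, whose ranges are given above, and also for sinusoidal endothelial and stellate cell markers. For hepatocyte markers the sum did not follow the count test. There the median log2 fold change of females over males was -0.11 in B6 and -0.24 in C3, against 0.00 and 0.01 over all genes. For the endothelial list the summed TPM was 287 to 334 in B6 females against 214 to 247 in B6 males and 248 to 289 against 199.99 to 235 in C3. For the stellate list it was 287 to 369 against 221 to 267 in B6 and 224 to 268 against 172 to 211 in C3. In C3 the same held for cholangiocyte (32.7 to 49.99 against 21.4 to 31.9), lymphocyte (8.16 to 13.4 against 3.99 to 5.15) and neutrophil markers (4.97 to 13.01 against 1.56 to 3.85), which overlapped between the sexes in B6. The part of these shifts in the sex differences was not tested.

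Livers of the same group and pool differed in a shared way for several members. After removal of group and pool effects from log2 CPM, 9 gene pairs were correlated over the 20 livers, with two-sided permutation tests within groups (100000 resamples) adjusted over the 9 pairs. Cyp4a10 correlated with Cyp4a14 (r = 0.81, adjusted p = 0.0022, rho = 0.75, adjusted p = 0.0059 by permutation). Without the 2 most extreme livers r was 0.67, and within pools it was 0.57 over 8 livers and 0.99 over 7, the pool of 5 being too small. B6 males spread most, with Cyp4a14 deviations from -2.64 to 2.32. The ranges were -0.31 to 0.38 in B6 females, -1.15 to 0.74 in C3 females and -0.55 to 1.11 in C3 males. B6 males therefore weigh most in the correlations of Cyp4a14, and r without that group was not computed. Cyp4a10 also correlated with its near copy Cyp4a32 (r = 0.73, adjusted p = 0.0022, rho = 0.67, adjusted p = 0.0059 by permutation), at 0.61 without 2 livers and at 0.83 and 0.73 within the pools of 8 and 7. Reads of these 2 genes share up to 13.2% of their windows, and the part of that in the correlation was not tested.

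For Cyp4a10 with Cyp4a31, r was 0.64 (adjusted p = 0.0199) and rho 0.46 (adjusted p = 0.0777 by permutation), with 0.55 without 2 livers and 0.39 and 0.88 within pools. For Cyp4a12a with Cyp4a12b, r was 0.70 (adjusted p = 0.0213) and rho 0.48 (adjusted p = 0.0808 by permutation), with 0.54 without 2 livers and 0.78 and 0.56 within pools; on log2(TPM + 1) r was 0.34, where females near 0 weigh less. The ranks of both pairs thus did not pass at 0.05. Cyp4f14 with Cyp4f15 gave r = -0.35 (adjusted p = 0.20) and rho = -0.22 (adjusted p = 0.43 by permutation), and r was -0.03 without 2 livers and of opposite sign within the pools of 8 (-0.69) and 7 (0.44).

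Cyp4a14 was also paired with 4 other genes of fatty acid metabolism. It correlated with Ehhadh, the peroxisomal bifunctional enzyme of beta-oxidation (r = 0.88, adjusted p = 0.0014, rho = 0.81, adjusted p = 0.0059 by permutation), at 0.78 without 2 livers and 0.72 and 0.95 within pools. It correlated with Acot1, a cytosolic acyl-CoA thioesterase (r = 0.71, adjusted p = 0.0014, rho = 0.79, adjusted p = 0.0056 by permutation), at 0.57 without 2 livers and 0.72 and 0.69 within pools. With Vnn1, a pantetheinase induced by fatty acids, r was 0.44 (adjusted p = 0.0453) and rho 0.65 (adjusted p = 0.0141 by permutation), at 0.37 without 2 livers and 0.51 and 0.34 within pools. With Pdk4, the kinase that shuts down pyruvate dehydrogenase, r was 0.45 and did not pass (adjusted p = 0.20, rho = 0.32, adjusted p = 0.27 by permutation), at 0.24 without 2 livers and 0.09 and 0.58 within pools.

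**Figure D5:**
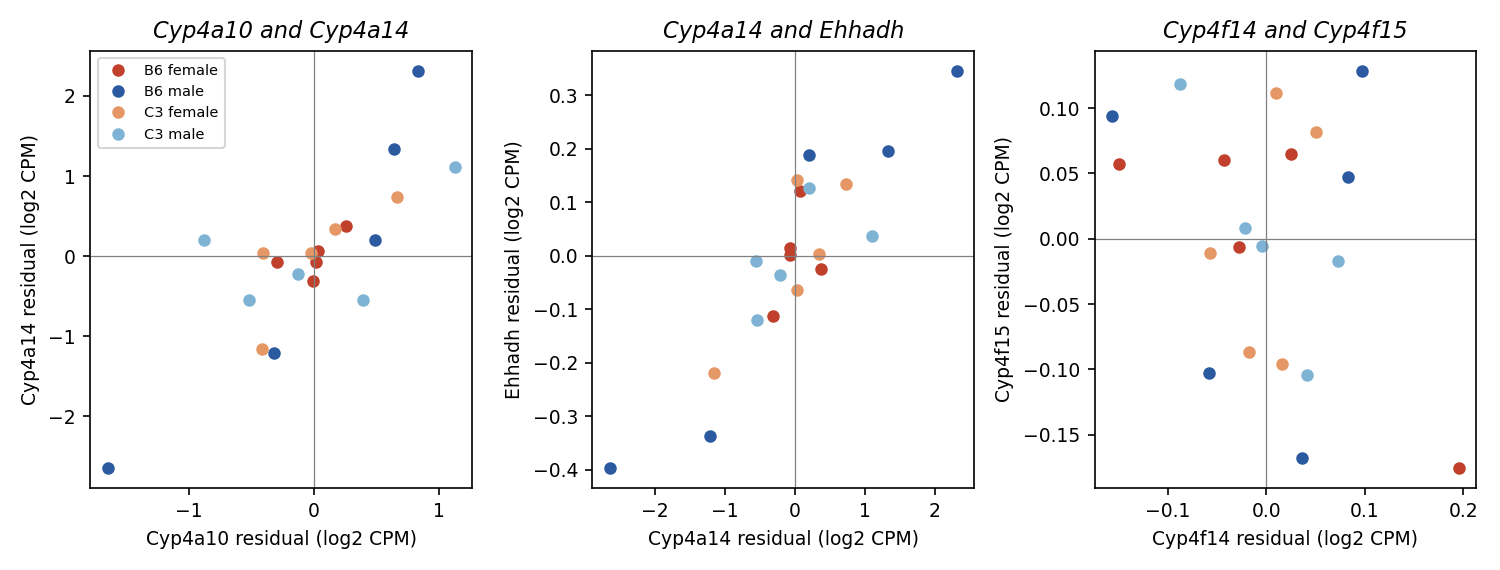
Deviations of single livers in log2 CPM after removal of group and pool effects, for Cyp4a10 against Cyp4a14, Cyp4a14 against Ehhadh, and Cyp4f14 against Cyp4f15. Each point is a liver, coloured by group. In the first 2 pairs the livers deviated together (r = 0.81 and 0.88), with B6 males at both ends, and the third pair gave r = -0.35.

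The genes whose log2 CPM over the 20 livers was most like that of a member, by Pearson's r and as a description that contains the group differences, were found among all tested genes. For Cyp4a10 they were Mpc1 (0.96), Rcan2 (0.95) and Tox (0.95), and for Cyp4a14 Vnn3 (0.97), Cyp17a1 (0.96) and Serpinb1a (0.96). For Cyp4a12a they were Alas2 (0.98), the Y-linked Eif2s3y (0.98) and Cyp2d9 (0.98). For Cyp4f14 the closest were weaker, BC021891 (0.81), Igtp (0.80) and Wrnip1 (0.77).

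Of 13 other loci with a Cyp4 symbol, 5 passed the filter. Cyp4f16, at 2.77 ± 0.494 CPM in B6 females and 1.24 ± 0.273 in B6 males, was higher in females by 1.09 ± 0.11 in B6 (adjusted p = 5.1e-07) and 1.37 ± 0.11 in C3 (adjusted p = 2.7e-08), and higher in C3 females than in B6 females by 0.62 ± 0.10 (adjusted p = 8.3e-05). Cyp4b1 was lower in C3 females than in B6 females by -0.65 ± 0.07 (adjusted p = 1.4e-06), at 18.4 ± 6.08 against 30.1 ± 7.73 CPM. Cyp4f17, at 11.1 to 14.3 CPM by group mean, Cyp4f18, below 0.5 CPM in each, and Cyp4f39, at 0.250 to 0.534, were not called. Of the 8 loci under the filter, Cyp4a30b had 6 to 11 counts in each C3 male and 0 in the other 15 livers, and was chosen for mention after its values were seen.

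Further genes of the pathway were grouped by role, and no list was tested as a set. The counts in each list stand beside the shares called over all tested genes. These were 6.34% between B6 sexes, 6.9% between C3 sexes, 9.4% between strains in females and 9.64% in males. The median log2 fold changes over all genes were 0.00, 0.01, 0.02 and 0.01 in the same order. Of 26 tested PPAR-alpha targets, 1 was called higher and 3 lower in B6 females than males, with a median log2 fold change of -0.12 against 0.00 over all genes, and 5 higher and none lower in C3 (median 0.06 against 0.01). Acot3, a peroxisomal acyl-CoA thioesterase, rose most in females, by 4.51 ± 0.49 in B6 and 5.38 ± 0.53 in C3, from 3.55 and 1.80 CPM in males. Between strains, 2 were higher and 3 lower in C3 females (median 0.07 against 0.02) and 1 higher and 8 lower in C3 males (median -0.37 against 0.01). Fgf21, the fasting hormone, was higher in C3 by 4.32 ± 0.45 in females and 3.34 ± 0.42 in males. Vnn1 was lower in C3 by -1.85 ± 0.29 in females and -5.26 ± 0.37 in males, and its interaction was called (3.41 ± 0.46, adjusted p = 2.5e-04), as was that of 1 other target, Cd36, named here after its value was seen.

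Of 22 tested partners of omega-oxidation, which pass electrons, oxidize the alcohol or shorten the dicarboxylic acid, 3 were called higher and 7 lower in B6 females (median -0.26) and 3 higher and 2 lower in C3 females (median -0.06). None was higher and 4 were lower in C3 in each sex (medians -0.04 in females and -0.27 in males). Abcd2, a peroxisomal importer of fatty acyl-CoA, was higher in females by 3.95 ± 0.39 in B6 and 4.29 ± 0.40 in C3, and Acot4, which cleaves succinyl-CoA and dicarboxylyl-CoA in peroxisomes, by 1.30 ± 0.15 and 1.61 ± 0.15.

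Of 19 tested genes of eicosanoid metabolism, 1 was higher and 3 lower in B6 females (median -0.04). In C3 females 2 were higher and 2 lower (median 0.05), and in C3 against B6 females 3 were higher and 4 lower (median -0.14). None was higher and 1 lower in C3 against B6 males (median -0.24), where 9.64% of all tested genes were called. Hpgd, which inactivates prostaglandins, was higher in B6 females than males by 0.76 ± 0.10 (0.05 ± 0.10 in C3; interaction adjusted p = 0.0076) and lower in C3 than in B6 females by -1.08 ± 0.10. Dpep1, a dipeptidase of leukotriene breakdown, was higher in C3 females than in C3 males by 2.19 ± 0.35 and than in B6 females by 2.18 ± 0.34, at 1.97 ± 1.21 CPM; its interaction of 3.17 ± 0.50 did not pass (adjusted p = 0.0012). Ptgds, a prostaglandin D synthase, was higher in C3 females than males by 1.92 ± 0.37, and in B6 the difference was 1.66 ± 0.36 (adjusted p = 0.0016), with an interaction of 0.26 ± 0.52 (adjusted p = 0.864).

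Of 23 transcription factors, receptors and signalling genes listed here as regulators, all tested, 4 were higher and 2 lower in B6 females (median 0.09) and 3 higher and none lower in C3 females (median 0.19). Between strains 1 was lower in C3 females (median 0.04), where 9.4% of all tested genes were called. In C3 males 1 was higher and 1 lower (median 0.06), where 9.64% of all tested genes were called. Ppara itself was at 283 ± 34.7 and 284 ± 46.6 CPM in B6 females and males and at 342 ± 66.2 and 267 ± 34.9 CPM in C3 females and males, and was called in none of the 5 comparisons. Cux2, a female-biased repressor downstream of growth hormone, was higher in females by 5.56 ± 0.52 in B6 and 6.30 ± 0.52 in C3. Bcl6, a male-biased repressor that opposes STAT5, was lower in B6 females by -2.44 ± 0.48, and its -1.71 ± 0.47 in C3 did not pass (adjusted p = 0.0084). Pparg, at 9.01 and 18.4 CPM in B6 females and males, was at 0.410 and 0.158 CPM in C3, lower by -4.29 ± 0.26 in females and -6.82 ± 0.30 in males.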

How the data were processed

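RNA-seq was performed on the livers of 20 mice, 5 in each group of strain and sex, taken as separate animals from the labels. Per the labels, strand-specific libraries depleted of ribosomal RNA were read as paired ends of 125 bases, trimmed with cutadapt 1.9.1, aligned to mm9 with STAR 2.5.1b and counted with featureCounts of Subread 1.5.0-p1, with pairs that hit more than 1 place or gene left out. Both strains were aligned to the same reference, and the effect of this on near-identical genes was not tested. The authors deposited raw counts per gene, without normalization, and TPM values made from the same counts, in which each library has a common scale; the headers of the symbol and identifier columns are exchanged there and were read by content. Floors from counts cover at most counting error and not differences between livers, and PCR copies were not marked.

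The analysis of counts used edgeR 4.0.16 under R 4.3.3, with filterByExpr on the 4 groups, TMM, and a quasi-likelihood fit of group and pool over all 20 livers with 5 contrasts and Benjamini-Hochberg adjustment over 13704 genes. A gene was called at an adjusted p under 0.001 and an absolute log2 fold change over 0.5. Correlations used log2 CPM with a prior count of 2. Promoter stretches were read from the mm9 genome at the starts in the deposited table, and coding sequences came from GENCODE M1 transcripts. The fit was tested on simulated data. Alternatives were DESeq2 1.42.0, limma 3.58.1 on log2(TPM + 1) and log2(TPM + 0.1), other size factors (RLE), no filter on low counts, no pool term, a replicate block, a fit of 2 groups, an adjusted p under 0.05 with no minimum fold change, and leaving out each liver.

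Beside the 10 members, the genes named are the other Cyp4 loci that passed the filter, at most the 3 called genes with the greatest change in each list (PPAR-alpha targets, omega-oxidation partners, eicosanoid metabolism, regulators), Ppara, the 3 genes most like 4 of the members, and called genes of the cell type marker lists. A gene that this rule gave is not reported here. The members and lists were chosen with earlier results of these data known. Protein sequences were not used here.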

Additional observations from a re-analysis of the deposited data

Results flagged for a closer look

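In 4 of 40 combinations of member and group, 1 liver stood apart from the other 4 in CPM by Dixon's test, and chance alone flags about 1 in 20. In B6 females, replicate 5 was the highest liver for both male-specific genes, at 1.76 CPM of Cyp4a12a (61 counts against 1 to 11 in the other B6 females) and at 0.288 CPM of Cyp4a12b (10 counts against 0 to 2). In C3 females, replicate 2 was at 0.0229 CPM of Cyp4a12b, which is 1 count against 0 in the others and under the floor of 3 counts. In C3 males, replicate 3 was at 2.53 CPM of Cyp4a14, and this liver was also the highest of its group for Cyp4a10, Cyp4a12a and Cyp4a32. Both B6 female values remained far below the lowest B6 male.

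For 2 members the sex effect differed between the strains by the interaction test. The female to male fold change of Cyp4a10 was greater in C3 by 3.71 on the log2 scale, and in both strains every female was above every male. That of Cyp4f14 differed by -0.66. Females were above males without overlap in B6, while in C3 the sexes overlapped and the log2 fold change of -0.17 was not called. The interaction call of each gene was lost without the pool term.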

How the results depend on the processing

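Depth limits the members at the bottom of the range: Cyp4a12a and Cyp4a12b in females and Cyp4a31 in C3 males rest on few counts. Calls near the threshold (Cyp4a31 between strains in males, the interaction of Cyp4a10) depend on most single livers. Reads shared between near copies limit Cyp4a12a, Cyp4a12b, Cyp4a10, Cyp4a31 and Cyp4a32. Where an alternative moved a value, the cause was not tested unless its construction shows it.

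Members called between B6 females and males numbered 7 at an adjusted p under 0.05 with no minimum fold change, against 4. This looser threshold called 4742 of the 13704 tested genes, against 869. In a fit of those 2 groups, which holds fewer livers, 2 members were called, of 592 genes called in all. The looser threshold gave 5 between strains in females (against 2), 7 in males (against 4) and 4 in the interaction (against 2). It called 4515, 4733 and 405 of the 13704 tested genes in these comparisons. In the interaction DESeq2 called 4 members, of 183 genes called in all. The edgeR fit without the pool term called 0 members, of 20 genes called in all. In that fit 5 members had an unadjusted p under 0.05, and the adjusted p was 0.0018 for Cyp4a10 and 0.0357 for Cyp4f14. Same-numbered livers were not treated as pairs, because the labels name no pairing. The correlation of their deviations, with pool effects removed, lay between -0.20 and 0.32 and was not over 0.1 in every pair. Such values cannot show whether same-numbered livers shared anything beyond the number. The replicate block left 1 member called in the interaction, ended the calls of Cyp4a10 there (adjusted p = 0.0048) and of Cyp4a31 between strains in males (adjusted p = 0.0028) and changed no other member's call. When each liver was left out in turn, members called ranged from 4 to 6 between B6 sexes, were 6 throughout between C3 sexes and 2 between strains in females, and ranged from 3 to 4 between strains in males and from 0 to 2 in the interaction, where the 0 came without C3 female replicate 1 (6 members at an unadjusted p under 0.05) or C3 male replicate 4 (5 members). The summed Cyp4a ratio then lay at 1.96 to 2.53 in B6, and in C3 at 1.19 to 1.42.

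Correlations moved by more than their standard error without the 2 most extreme livers for Cyp4a10 with Cyp4a14 (0.67) and Cyp4a32 (0.61), for Cyp4a12a with Cyp4a12b (0.54), for Cyp4a14 with Pdk4 (0.24), Acot1 (0.57) and Ehhadh (0.78), and for Cyp4f14 with Cyp4f15 (-0.031). With pool means kept they did so for Cyp4a10 with Cyp4a32 (0.57), Cyp4a14 with Acot1 (0.52) and Ehhadh (0.82) and Cyp4f14 with Cyp4f15 (-0.72), and on log2(TPM + 1) for Cyp4a12a with Cyp4a12b (0.34).

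Directions turned for values near 0 that were not called. Between B6 sexes, Cyp4f13 became 0.054 on both log2(TPM + 1) and log2(TPM + 0.1), and Cyp4a32 ranged from -0.069 to 0.13 without single livers. On log2(TPM + 0.1) the median of all genes moved to 0.11 in B6 and 0.12 in C3, which exceeds the difference of Cyp4f13, and the share of calls higher in females rose from 50.9% to 71.6% in B6 and in C3 from 59.6% to 77.4%. Between C3 sexes, Cyp4f15 became -0.028 without the pool term and ranged from -0.021 to 0.053 without single livers. Between strains in females, Cyp4a12a became -0.011 without the pool term and ranged from -0.66 to 1.35 without single livers. There Cyp4a31 became -0.020 with DESeq2, -0.050 on log2(TPM + 1) and -0.088 on log2(TPM + 0.1) and ranged from -0.19 to 0.15, and Cyp4f15 became -0.043 on log2(TPM + 1) and -0.044 on log2(TPM + 0.1) and ranged from -0.021 to 0.055. In the interaction, the male pair ranged without single livers from -1.31 to 0.69 for Cyp4a12a and from -1.11 to 2.22 for Cyp4a12b, where female counts are near 0.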
